A study of Homo sapiens with 16 samples.

Results

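The genes described here are the EGF receptor family and its ligands: the receptors EGFR, ERBB2 and ERBB3 and the ligands AREG, EREG, HBEGF, TGFA, BTC and NRG1. They were taken by gene symbol from the deposited expression table, which had 1 row for each of the 9 symbols among 23368 rows in all, and each of the 9 was above the low-value filter. The cells were MCF10A, an established human mammary epithelial line that is not tumorigenic. A Mock stock, which carries the empty vector, and a stock that overexpresses the histone demethylase PHF8 were each left untreated or given TGF-β1 at 5 ng/ml for 24, 48 or 72 h. This gave 8 groups of 2 RNA-seq libraries, 1 from each of 2 sequencing rounds, with the rounds numbered as the replicates. The medium of every group held 20 ng/ml EGF, 100 ng/ml cholera toxin, 10 µg/ml insulin, 500 ng/ml hydrocortisone and 5% horse serum, so the untreated cells were also exposed to an EGFR ligand. Each kind of stock is a single one in the labels, and whether the replicates came from separate cultures is not said there; every p-value therefore rests on the spread between these libraries, which may be technical.

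Ligands of the EGF family are made as membrane-anchored precursors that proteases of the ADAM family cut free. EGF, amphiregulin, TGF-α, epigen, epiregulin, betacellulin and HB-EGF bind EGFR, and neuregulins bind ERBB3 and ERBB4. Bound receptors pair with each other, often with ERBB2, and signal through RAS and ERK and through PI3K. Mammary epithelial cells in culture make several of these ligands themselves, and MCF10A growth in the standard medium depends on added EGF. TGF-β1 slows the growth of such cells and drives an epithelial-to-mesenchymal transition in many of them.

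The values are the authors' log2 expression values. They are not corrected for gene length, so levels are compared between samples and not between genes. PHF8 itself measured 9.26 to 9.72 in the 8 Mock libraries and 13.64 to 14.73 in the 8 libraries of the PHF8 stock. All 8 basal mammary epithelial markers were above the filter. Of the fibroblast markers only DCN was, of the endothelial and blood markers only PECAM1, with CD3E at 0 in every library, and of the luminal markers ESR1 and FOXA1, with PGR at 0. Summed linear values of the basal list were 118500 to 166400 in the 4 untreated libraries and 224800 to 489300 in the 12 treated ones; those of the fibroblast list were 219.6 to 5064 and 395.1 to 7262, of the endothelial and blood list 17.33 to 25.07 and 13.57 to 22.61, and of the luminal list 174.4 to 325.2 and 110.7 to 235.3. A sum follows its highest genes, and the basal markers did not all rise. Their median log2 difference from untreated (mean of both stocks) was 0.60, 0.25 and -0.02 at 24, 48 and 72 h. At an adjusted p under 0.05 (limma) 4, 2 and 1 of the 8 were higher and 0, 1 and 1 lower. Over all genes 17%, 16.2% and 14.3% were higher and 16.3%, 15% and 13.1% lower. The part of these list shifts in the results below was not tested. Bulk RNA cannot tell fewer cells of a kind from less RNA per cell.

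After TGF-β1, EREG fell to between 0.251 and 0.303 of its untreated level at 24, 48 and 72 h, and HBEGF fell and TGFA rose at all 3 times. BTC fell at 24 and 48 h and AREG at 24 h, and of the receptors ERBB2 was called, slightly higher at 24 h. With sequencing round as a block ERBB3 was also called lower at all 3 times, ERBB2 higher at 48 and 72 h, AREG lower at 48 h and BTC lower at 72 h. Differences between treated and untreated libraries are given as the mean over both stocks (4 libraries against 4) ± SE from limma fitted across 13570 genes, with Benjamini-Hochberg adjusted p-values, and a gene is called changed at an adjusted p under 0.05. The 24, 48 and 72 h comparisons share the same 4 untreated libraries and are not independent. At 24 h 6 of the 9 genes were called, 4 lower and 2 higher, beside 33.3% of all genes tested in that comparison (16.3% lower and 17% higher). At 48 h 4 were called, 3 lower and 1 higher, beside 31.2% of all genes (15% lower and 16.2% higher), and at 72 h 3 were called, 2 lower and 1 higher, beside 27.4% (13.1% lower and 14.3% higher). The median difference of the 9 genes was -0.44, -0.70 and -0.39 at 24, 48 and 72 h, and that of all genes was -0.01, 0.00 and 0.00. With the round as a block the counts were 7, 7 and 6 of 9, beside 49.5%, 47.7% and 43.7% of all genes.

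**Figure D1:**
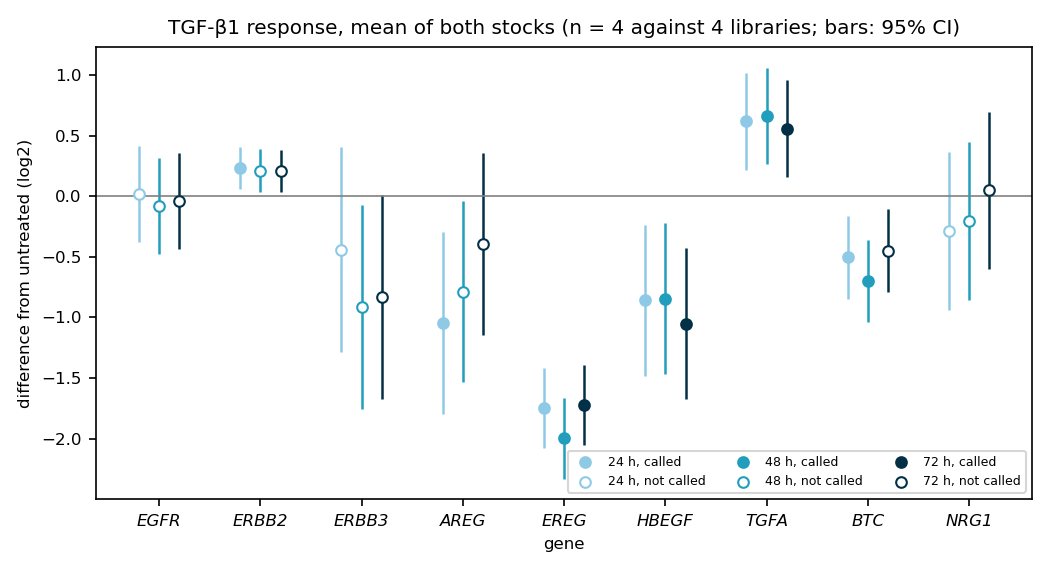
Log2 difference from untreated at 24, 48 and 72 h of TGF-β1 for each of the 9 genes, as the mean of both stocks with 95% confidence intervals (4 libraries against 4). Filled points were called by limma. EREG stands lowest, between -2.0 and -1.72, and TGFA lies above 0 at all 3 times.

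EGFR, the receptor for most of these ligands, measured 12.74 and 12.89 (rounds 1 and 2) in untreated Mock cells, 12.81 and 12.74 at 24 h, 12.64 and 12.88 at 48 h, and 12.71 and 12.90 at 72 h. The PHF8 stock gave 12.48 and 12.77, 12.66 and 12.74, 12.13 and 12.90, and 12.18 and 12.92 in the same order. Treated and untreated ranges overlapped, and all neighbours in the order of the 8 group means overlapped too. The differences were 0.02, -0.08 and -0.04 (SE 0.181 each), with 95% confidence intervals from -0.38 to 0.42 at 24 h, from -0.48 to 0.32 at 48 h and from -0.44 to 0.36 at 72 h. The 4 round 1 libraries of the PHF8 stock held EGFR at 12.13 to 12.66 against 12.64 to 12.92 in the other 12. The same 4 libraries held DCN, the fibroblast marker above the filter, at 11.57 to 12.82 against 7.74 to 10.07, and its part in the EGFR values was not tested.

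ERBB2, the receptor with no known ligand of its own that serves as the preferred partner in receptor pairs, rose slightly at 24 h. Its values in Mock were 9.95 and 10.13 untreated, 10.33 and 10.34 at 24 h, 10.30 and 10.35 at 48 h, and 10.33 and 10.38 at 72 h. The PHF8 stock gave 10.19 and 10.11, 10.37 and 10.26, 10.14 and 10.44, and 10.22 and 10.28. Treated and untreated ranges overlapped. The untreated groups of both stocks were the lowest by mean, and of neighbours in the order of group means only PHF8 72 h and untreated PHF8 did not overlap. Of the 12 treated libraries 11 lay above the untreated library of their own stock and round. The difference was 0.23 ± 0.080 at 24 h (adjusted p 0.0441, limma), and 0.21 at both 48 h (adjusted p 0.0659) and 72 h (adjusted p 0.0766). With the round as a block the adjusted p was 0.0158, 0.0255 and 0.0296. The 24 h call was kept in only 3 of the 16 fits that each left out a library, those without PHF8 48 h round 1, untreated Mock round 2 or PHF8 48 h round 2, and the adjusted p reached 0.14 in the others. At 48 h ERBB2 was called when PHF8 48 h round 1 was left out (adjusted p 0.0224).

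ERBB3, which binds neuregulins and relies on a partner receptor for most of its kinase activity, differed more between rounds than any other receptor here. Mock values were 7.05 and 7.81 untreated, 6.54 and 7.31 at 24 h, 6.60 and 7.11 at 48 h, and 6.08 and 6.99 at 72 h, and those of the PHF8 stock were 7.31 and 8.04, 6.94 and 7.68, 5.76 and 7.10, and 6.38 and 7.45. Its mean over the 8 libraries was 6.58 in round 1 and 7.44 in round 2, and treated and untreated ranges overlapped, as did all neighbours in the order of group means. Every treated library lay below the untreated library of its own stock and round, with differences from -1.56 to -0.37. The differences were -0.44, -0.92 and -0.83 (SE 0.384; adjusted p 0.415, 0.0931 and 0.135), none called without the round, and with the round as a block the adjusted p was 0.0155, 0.000182 and 0.000418. Within round 1 the difference was -0.44, -1.0 and -0.95, and within round 2 -0.44, -0.83 and -0.71. Without PHF8 48 h round 2 the 48 h difference was called without the block (adjusted p 0.0379).

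**Figure D2:**
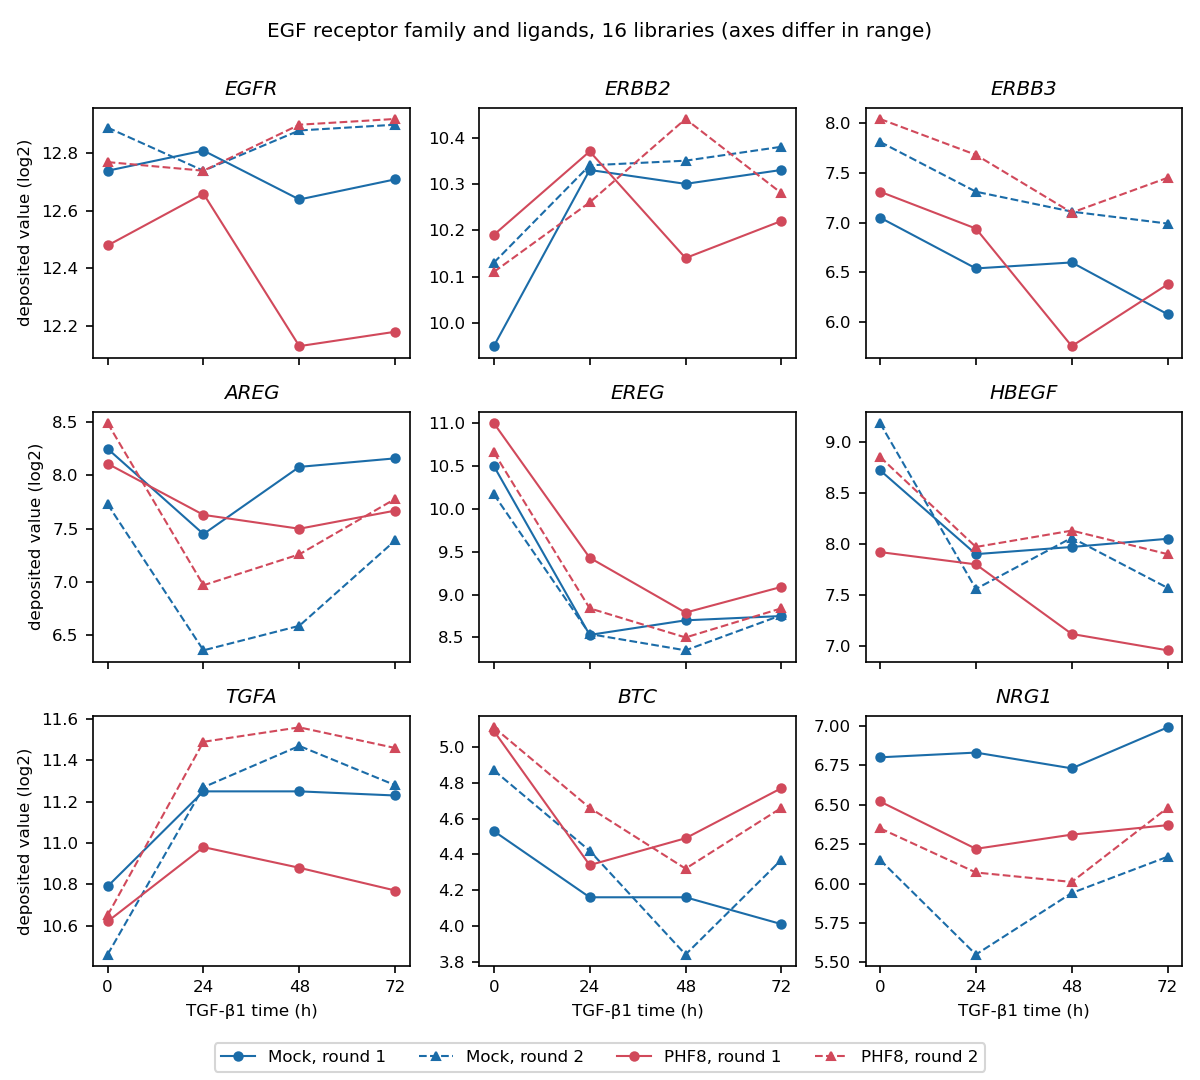
Deposited log2 value of the 9 genes in all 16 libraries against hours of TGF-β1, with Mock and PHF8 stock in colours and sequencing rounds by marker and line style. EREG drops in each of the 4 series between 0 and 24 h, and ERBB3 is higher in round 2 than in round 1 in each series.

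Among the ligands EREG, which encodes epiregulin, a ligand of EGFR and ERBB4, gave the clearest fall. In Mock it measured 10.50 and 10.17 untreated, 8.53 and 8.54 at 24 h, 8.70 and 8.35 at 48 h, and 8.75 and 8.76 at 72 h. The PHF8 stock gave 11.00 and 10.66, 9.43 and 8.84, 8.79 and 8.50, and 9.09 and 8.84. All 4 untreated libraries (10.17 to 11.00) stood above all 12 treated ones (8.35 to 9.43), a separation in this direction that 9.14% of all genes tested showed (10.9% showed the opposite one). The difference was -1.75 ± 0.151 at 24 h (0.298 of the untreated level, adjusted p 2.25e-05, limma), -2.0 at 48 h (0.251 of it, adjusted p 8.09e-06) and -1.72 at 72 h (0.303 of it, adjusted p 2.46e-05). It was called in Mock alone (-1.80, -1.81 and -1.58, SE 0.214) and in the PHF8 stock alone (-1.69, -2.18 and -1.86), and in each of the 16 fits that left out a library. Untreated PHF8 cells held the highest EREG level, then untreated Mock cells with no overlap, then the treated groups, of which only PHF8 72 h and Mock 72 h were neighbours that did not overlap. The untreated difference between stocks was 0.49 ± 0.214 and not called (adjusted p 0.993, limma). For EREG and the other genes, the share of all genes with such gaps between neighbouring groups of 2 libraries was not computed.

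AREG, which encodes amphiregulin, gave its largest difference at 24 h, where it fell. Its values in Mock were 8.25 and 7.73 untreated, 7.45 and 6.36 at 24 h, 8.08 and 6.59 at 48 h, and 8.16 and 7.39 at 72 h, and in the PHF8 stock 8.11 and 8.49, 7.63 and 6.97, 7.50 and 7.26, and 7.67 and 7.78. Treated and untreated ranges overlapped, and all 12 treated libraries lay below the untreated library of their own stock and round. The difference was -1.04 ± 0.341 at 24 h (adjusted p 0.0356), -0.79 at 48 h (adjusted p 0.103) and -0.39 at 72 h (adjusted p 0.44), and with the round as a block the 48 h adjusted p was 0.0230. The fall was larger in round 2 (-1.45, -1.18 and -0.52) than in round 1 (-0.64, -0.39 and -0.27). The 24 h call was lost without any 1 of the 4 untreated libraries or the round 2 libraries of Mock or PHF8 at 24 h, with an adjusted p of up to 0.137, and the 48 h difference was called without Mock 48 h round 1 (adjusted p 0.0163). Of neighbours in the order of group means only PHF8 72 h and PHF8 48 h did not overlap. Between 24 and 72 h AREG differed by 0.65 ± 0.341 (adjusted p 0.568), in a comparison where limma called none of the 9 genes, none at an unadjusted p under 0.05, and 0.0295% of all genes. RefSeq lists AREGB as a synonym, a near-identical copy in older annotation. How the authors' counting treated reads that match both copies was not tested, and the AREG level is uncertain.

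HBEGF encodes heparin-binding EGF-like growth factor, a ligand of EGFR and ERBB4. Mock values were 8.72 and 9.18 untreated, 7.90 and 7.56 at 24 h, 7.97 and 8.06 at 48 h, and 8.05 and 7.57 at 72 h, and PHF8 values 7.92 and 8.85, 7.80 and 7.97, 7.12 and 8.13, and 6.96 and 7.90. The ranges overlapped, through the untreated round 1 library of the PHF8 stock at 7.92, and every treated library lay below the untreated library of its own stock and round. The difference was -0.86 ± 0.284 at 24 h (0.552 of the untreated level, adjusted p 0.0379), -0.84 at 48 h (0.557, adjusted p 0.0420) and -1.05 at 72 h (0.483, adjusted p 0.0182). With the round as a block the adjusted p was 0.0117, 0.0130 and 0.00436. The calls without the block depended on which libraries were kept. The call was kept in 10 of 16 fits at 24 h, 4 of 16 at 48 h and 12 of 16 at 72 h. At 24 h it was lost without Mock or PHF8 24 h of either round or without the untreated round 2 library of either stock (adjusted p up to 0.145). At 48 h it was kept only without untreated PHF8 round 1, PHF8 72 h of either round or PHF8 48 h round 2 (up to 0.159 otherwise). At 72 h it was lost without PHF8 72 h round 1, Mock 72 h round 2 or either untreated round 2 library (up to 0.0770). Of neighbouring group means only Mock 48 h and PHF8 24 h did not overlap.

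TGFA, which encodes TGF-α, an EGFR ligand, rose. Mock values were 10.79 and 10.46 untreated, 11.25 and 11.27 at 24 h, 11.25 and 11.47 at 48 h, and 11.23 and 11.28 at 72 h, and PHF8 values 10.62 and 10.65, 10.98 and 11.49, 10.88 and 11.56, and 10.77 and 11.46. Every treated library was above the untreated library of its own stock and round, by 0.15 to 1.01, though treated values (10.77 to 11.56) and untreated values (10.46 to 10.79) overlapped in the PHF8 72 h round 1 library. The difference was 0.62 ± 0.182 at 24 h (1.53-fold, adjusted p 0.0233), 0.66 at 48 h (1.58-fold, adjusted p 0.0172) and 0.56 at 72 h (1.47-fold, adjusted p 0.0413). With the round as a block the adjusted p was 0.00506, 0.00341 and 0.0102. The difference was larger in round 2 (0.82, 0.96 and 0.82) than in round 1 (0.41, 0.37 and 0.30). The 6 treated groups were the highest by mean, and only PHF8 72 h and untreated PHF8 were neighbours without overlap. The call was kept in 10, 13 and 8 of the 16 fits at 24, 48 and 72 h, and the adjusted p reached 0.0819, 0.0678 and 0.15. At 24 h it was lost without Mock 24 h of either round, PHF8 24 h round 2, or any untreated library other than Mock round 1. At 48 h the libraries were untreated Mock, Mock 48 h and PHF8 48 h, all of round 2. At 72 h they were Mock 24 h and Mock 72 h of either round, PHF8 72 h round 2, and the same 3 untreated libraries as at 24 h.

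BTC encodes betacellulin, a ligand of EGFR and ERBB4, and was close to the filter, where this kind of transformed value pulls genes towards their mean. Mock values were 4.53 and 4.87 untreated, 4.16 and 4.42 at 24 h, 4.16 and 3.84 at 48 h, and 4.01 and 4.37 at 72 h, and PHF8 values 5.09 and 5.11, 4.34 and 4.66, 4.49 and 4.32, and 4.77 and 4.66. Treated and untreated ranges overlapped, and every treated library was below the untreated library of its own stock and round. The difference was -0.50 ± 0.155 at 24 h (adjusted p 0.0283), -0.70 at 48 h (adjusted p 0.00581) and -0.45 at 72 h (adjusted p 0.0518, and 0.0336 with the round as a block). The 48 h call was kept in all 16 fits, and that at 24 h in 11, lost without Mock 24 h round 1, untreated PHF8 of either round, PHF8 24 h round 1 or untreated Mock round 2 (adjusted p up to 0.102). Of neighbouring group means only untreated PHF8, the highest, and PHF8 72 h did not overlap. At 72 h BTC was called when untreated Mock round 1 was left out (adjusted p 0.0468).

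NRG1 encodes neuregulin 1, a ligand of ERBB3 and ERBB4, and was called in no comparison. It ranged from 5.55 to 6.99 over the 16 libraries, with a mean of 6.60 in round 1 and 6.09 in round 2. The differences were -0.29, -0.21 and 0.05 (SE 0.296), with 95% confidence intervals from -0.94 to 0.37, from -0.86 to 0.44 and from -0.60 to 0.70, and 8 of 12 treated libraries were below their own untreated library. All neighbours in the order of group means overlapped.

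The promoter windows of EREG, AREG and BTC, the 3 genes of the cluster described next, and of HBEGF and TGFA, outside it, are shown because these ligands were called after TGF-β1 in opposite directions. The sequences are RefSeq windows of GRCh38.p14 from 250 bases before to 50 after the start of the gene, and 7 of the 9 genes matched an entry. Capitals mark matches, on either strand, to AP-1 TGANTCA, CRE TGACGTCA, the palindromic SMAD motif GTCTAGAC, the TATA box TATAAA and the GC box GGGCGG. Their positions are chr4:74364895-74365194 plus strand for EREG, chr4:74444886-74445185 plus strand for AREG, chr4:74794474-74794773 minus strand for BTC, chr5:140346554-140346853 minus strand for HBEGF and chr2:70553777-70554076 minus strand for TGFA, the first of 2 windows listed.
EREG: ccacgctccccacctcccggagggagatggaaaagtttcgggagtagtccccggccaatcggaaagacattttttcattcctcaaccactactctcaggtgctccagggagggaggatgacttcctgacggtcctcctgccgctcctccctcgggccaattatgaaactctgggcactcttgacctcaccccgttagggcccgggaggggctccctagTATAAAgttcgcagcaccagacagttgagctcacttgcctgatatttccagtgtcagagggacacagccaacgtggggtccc
AREG: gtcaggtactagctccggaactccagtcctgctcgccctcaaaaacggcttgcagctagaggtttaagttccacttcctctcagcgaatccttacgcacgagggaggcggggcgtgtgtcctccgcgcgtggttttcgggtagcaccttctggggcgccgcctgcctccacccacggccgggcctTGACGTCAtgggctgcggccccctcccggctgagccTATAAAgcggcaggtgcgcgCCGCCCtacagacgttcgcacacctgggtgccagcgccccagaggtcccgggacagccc
BTC: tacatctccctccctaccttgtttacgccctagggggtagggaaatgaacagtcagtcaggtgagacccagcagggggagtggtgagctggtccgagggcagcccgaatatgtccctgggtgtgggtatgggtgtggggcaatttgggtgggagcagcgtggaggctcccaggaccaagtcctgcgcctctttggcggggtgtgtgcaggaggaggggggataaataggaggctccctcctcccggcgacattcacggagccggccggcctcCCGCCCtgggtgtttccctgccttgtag
HBEGF: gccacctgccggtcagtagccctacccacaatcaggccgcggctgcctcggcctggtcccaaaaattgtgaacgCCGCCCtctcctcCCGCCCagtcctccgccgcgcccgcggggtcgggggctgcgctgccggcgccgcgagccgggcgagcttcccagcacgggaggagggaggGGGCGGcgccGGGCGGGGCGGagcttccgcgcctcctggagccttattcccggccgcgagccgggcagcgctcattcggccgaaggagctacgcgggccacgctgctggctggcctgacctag
TGFA: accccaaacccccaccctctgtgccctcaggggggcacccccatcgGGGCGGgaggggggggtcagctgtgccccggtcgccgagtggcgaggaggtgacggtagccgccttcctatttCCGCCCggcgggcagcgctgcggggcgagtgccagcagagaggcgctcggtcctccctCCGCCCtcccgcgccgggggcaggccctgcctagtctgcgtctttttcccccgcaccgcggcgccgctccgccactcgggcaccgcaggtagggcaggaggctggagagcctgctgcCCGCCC

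The EREG and AREG windows each held a TATA box, found in 11.5% of 35116 windows of the same length, and the AREG window also held a CRE, found in 1.85%. The AREG and BTC windows held 1 GC box each, TGFA 4 and HBEGF 5, of which a pair overlaps by 1 base, beside 45% of windows with at least 1. No AP-1 or SMAD motif was in these 5 windows (7.71% and 0.202% of all windows). Of the windows not printed, that of ERBB2 held 1 AP-1 motif, the first of EGFR 3 GC boxes, the second of EGFR 2 AP-1 motifs and 2 TATA boxes, and the second of TGFA none of the motifs. The EPGN window, at chr4:74308220-74308519 on the plus strand, held a TATA box. Matches are descriptions of letters in these windows and not of bound sites.

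EREG, AREG and BTC follow one another among the protein-coding genes of chromosome 4, with EPGN before them in RefSeq order. EPGN, which encodes epigen, another EGFR ligand, differed by -1.23 ± 0.164 at 24 h, -1.34 at 48 h and -1.18 at 72 h (adjusted p 0.000299, 0.000151 and 0.000411), and the call was kept in all 16 fits that left out a library. All 12 treated libraries lay below their own untreated library for EPGN, EREG, AREG, BTC, HBEGF and ERBB3, as did those of 21.7% of all genes tested, and all 12 lay above it for TGFA, as for 20.6%. The flanking genes, chosen after their values were seen, did not share one pattern. MTHFD2L, a mitochondrial folate enzyme, differed by -0.37, -0.48 and -0.33 (adjusted p 0.0422, 0.0141 and 0.0786, the last 0.0345 with the round as a block). CXCL3, a chemokine, was higher by 0.72, 1.11 and 1.90 (adjusted p 0.00131, 7.50e-05 and 3.82e-06), while CXCL2, beside it, was not called (-0.26, -0.01 and 0.39, the last with an adjusted p of 0.0766, and 0.0440 with the block). On the other side PARM1 was under the filter, and RCHY1 and THAP6 were within 0.10 of no difference and not called.

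**Figure D3:**
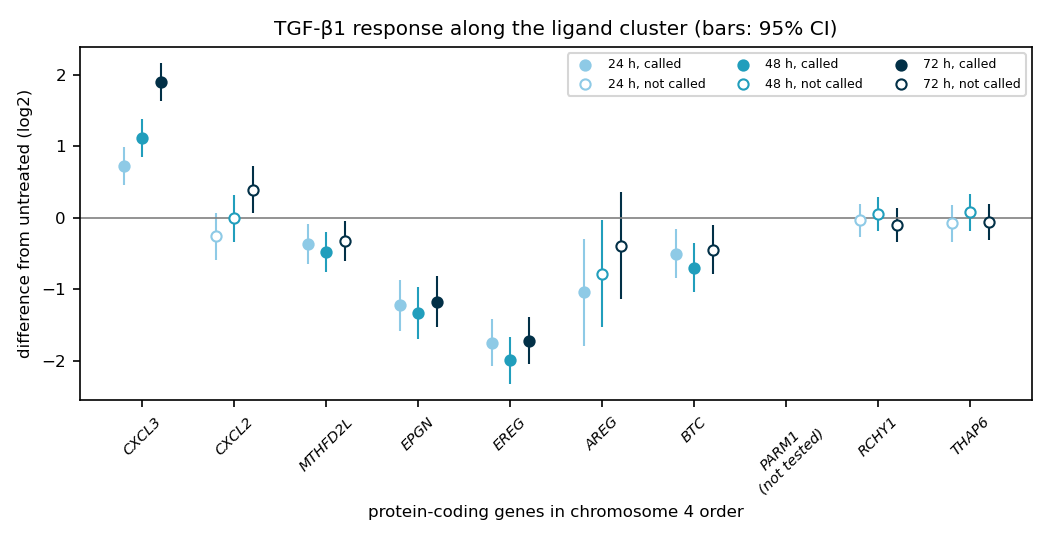
Log2 difference from untreated at 24, 48 and 72 h for genes in their order along chromosome 4, as the mean of both stocks with 95% confidence intervals. EPGN, EREG, AREG and BTC are below 0 at each time, CXCL3 is above 0, and RCHY1 and THAP6 lie near 0.

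Within a single stock, with 2 libraries against 2, fewer of the 9 genes were called. In Mock, EREG was the only call at 24 and 72 h, and EREG and BTC were called at 48 h, beside 17.3%, 14.4% and 17.3% of all genes at 24, 72 and 48 h. The BTC call in Mock at 48 h (-0.70 ± 0.22, adjusted p 0.0492) was lost in each of the 16 fits that left out a library, where the adjusted p reached 0.301. EREG was the only call in the PHF8 stock at each time, beside 11.7%, 12.6% and 9.38% of all genes at 24, 48 and 72 h. HBEGF at 24 h and TGFA at 48 h in Mock were called in 6 and 4 of those fits. With the round as a block the counts became 5 at each time in Mock, beside 35.9%, 34.9% and 31.5% of all genes, and 1, 3 and 2 in the PHF8 stock, beside 29.3%, 28.2% and 23.4%. The difference of the TGF-β1 response between stocks was called by limma for none of the 9 genes at any time, with none at an unadjusted p under 0.05, and for 0% of all genes. Of all 13570 genes 85, 124 and 132 had an unadjusted p under 0.05 at 24, 48 and 72 h, fewer than that threshold passes when nothing differs. The test was thus conservative here, and the lack of calls does not show equal responses. The largest member difference of this kind was HBEGF at 24 h, 0.72 ± 0.568 with a 95% confidence interval from -0.53 to 1.97.

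Between stocks, PHF8 against Mock, limma called none of the 9 genes in untreated cells or at 24, 48 or 72 h, where it called 0.00737%, 0.00737%, 0.00737% and 0.0147% of all genes. At an unadjusted p under 0.05 there were 1, 1, 0 and 1 of the 9, beside 4.69%, 3.91%, 2.9% and 4.1% of all genes. As the mean over the 4 conditions none was called either, beside 1.69% of all genes. At an unadjusted p under 0.05 there were 2 of 9, beside 16.2% of all genes. The 2 were EREG, higher in the PHF8 stock by 0.36 ± 0.107 (adjusted p 0.135), and BTC, by 0.38 ± 0.110 (adjusted p 0.118). With the round as a block, which brought both under the threshold, their adjusted p was 0.0104 and 0.0499, in a fit that called 9.12% of all genes. In that fit the fibroblast marker DCN was also called higher in the PHF8 stock (1.49 ± 0.681, adjusted p 0.312 without the block and 0.0286 with it), and its part in the EREG and BTC differences was not tested. Both were higher in the PHF8 library than in its Mock library in 8 of 8 pairs, by 0.09 to 0.90 for EREG and by 0.18 to 0.76 for BTC, and 6.9% of all genes tested were higher, and 5.06% lower, in all 8. In round 1 AREG, HBEGF, TGFA and NRG1 differed by -0.26, -0.71, -0.32 and -0.48, and in round 2 by 0.61, 0.12, 0.17 and 0.28. EGFR differed by -0.37 and -0.02 in rounds 1 and 2, and ERBB3 by 0.03 and 0.26, each with 1 sign in both rounds and neither called in either fit. ERBB2 differed by 0.00 and -0.03.

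**Figure D4:**
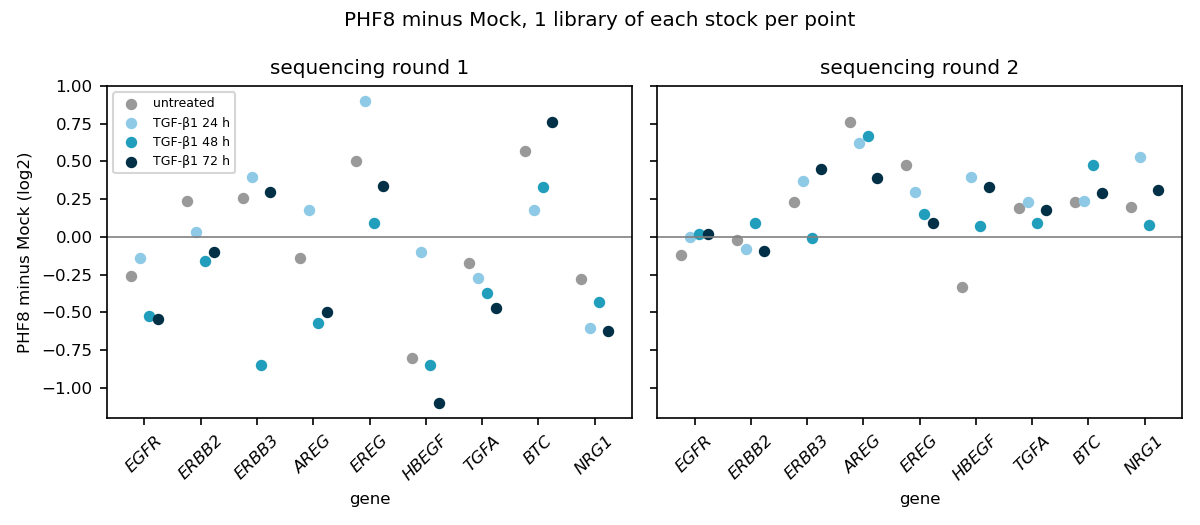
Log2 difference of each PHF8 library from the Mock library of the same condition and round, for the 9 genes, with round 1 on the left, round 2 on the right and the 4 conditions in colours. All 8 points of EREG and BTC are above 0, while those of TGFA and NRG1 are all below 0 in round 1 and all above it in round 2.

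Other genes of the pathway were taken from 5 lists of 66 genes, 62 of them tested. Over all genes 17%, 16.2% and 14.3% were called higher and 16.3%, 15% and 13.1% lower at 24, 48 and 72 h. When the round was a block, 24.5%, 23.8% and 21.7% were called higher and 25%, 23.9% and 22% lower. The counts that follow are to be read against these shares. Of the 8 ligand-shedding genes 4 were called higher and 1 lower at 24 h, and 3 higher and 1 lower at 48 and 72 h, with medians of 0.26, 0.21 and 0.20, and 4 higher and 1 lower at each time with the block. ADAM12, a protease that can release HB-EGF, differed by 1.23 ± 0.252 at 48 h (adjusted p 0.00372), and RHBDF1, an iRhom that carries ADAM17 to the surface, by 1.14 ± 0.151 (adjusted p 0.00026). ADAM10 was higher by 0.25 (adjusted p 0.0295) and ADAM15 lower, at -0.38 (adjusted p 0.00427), while ADAM17 itself was not called (-0.10 ± 0.192, adjusted p 0.735). Of the other family members EGF, NRG4 and EPGN were tested and ERBB4, NRG2 and NRG3 were under the filter, with 0 called higher and 1, 2 and 2 lower at 24, 48 and 72 h (medians -0.52, -0.84 and -0.66), and with the block the counts did not change. NRG4, an ERBB4 ligand, differed by -0.84 ± 0.219 at 48 h (adjusted p 0.0137).

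Of the 24 adaptors and signal transducers 6, 5 and 3 were called higher and 0 lower at 24, 48 and 72 h, with medians of 0.13, 0.14 and 0.07, and with the round as a block 11, 10 and 8 were higher and 1, 1 and 2 lower. The kinase gene SRC rose by 1.19 ± 0.136 at 48 h (adjusted p 9.64e-05), the ERK1 gene MAPK3 by 0.75 ± 0.217 (adjusted p 0.0214), NRAS by 0.62 (adjusted p 0.000205) and the phospholipase gene PLCG1 by 0.59 (adjusted p 0.000149). Of the 17 feedback inhibitors and receptor turnover genes 3, 4 and 3 were called higher and 4, 5 and 4 lower (medians -0.05, -0.19 and -0.21), and with the block 4, 4 and 4 were higher and 5, 8 and 7 lower. SPRY1, an inhibitor of RAS and ERK signalling, fell by 2.67 on the log2 scale at 48 h (SE 0.2, adjusted p 7.86e-06). LRIG1, which promotes loss of EGFR from the cell, fell by 1.14 (adjusted p 0.000248). SPRY2 fell by 0.96 (adjusted p 7.20e-05) and ERRFI1, an inhibitor of the EGFR kinase, by 0.71 (adjusted p 0.0444). SPRY4 was among the 4 called higher at 48 h, by 0.56 (adjusted p 0.011). LRIG1 was also the one list gene called between stocks in the fit without the round, 0.62 ± 0.107 higher in the PHF8 stock (adjusted p 0.0196), in 11 of the 16 fits that left out a library. Over the 4 conditions, the fit without the round called 1.69% of all genes between stocks, and that with the round as a block 9.12%. Calls between stocks with the block were 1 lower among the shedding genes (ADAM15), and STAT3 higher and SRC lower among the transducers named here. Among the feedback genes 1 was higher (LRIG1) and 2 lower (DUSP4 and DUSP6), and among the ERK-responsive transcripts 2 were lower (PHLDA1 and CCND1). Of the 10 ERK-responsive transcripts tested 2 were called higher at each time and 1, 2 and 2 lower, with medians of 0.02, -0.10 and 0.00, and with the block 2, 4 and 4 were higher and 3, 3 and 2 lower. MYC fell by 1.35 at 48 h (adjusted p 0.000209) and FOS by 0.91 (adjusted p 0.0224), while IER3 rose by 0.69 (adjusted p 0.00187) and IER2 by 0.52 (adjusted p 0.0316). When each library was left out in turn, the 48 h calls of ERRFI1 (kept in 6 of 16 fits), ADAM10 and IER2 (10 each) and MAPK3 and FOS (12 each) were not kept throughout. NRG4, close to the filter, was called in 13 of the 16 fits. Its call was lost only without Mock 48 h round 2, and in the remaining fits NRG4 was under the filter and not tested.

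**Figure D5:**
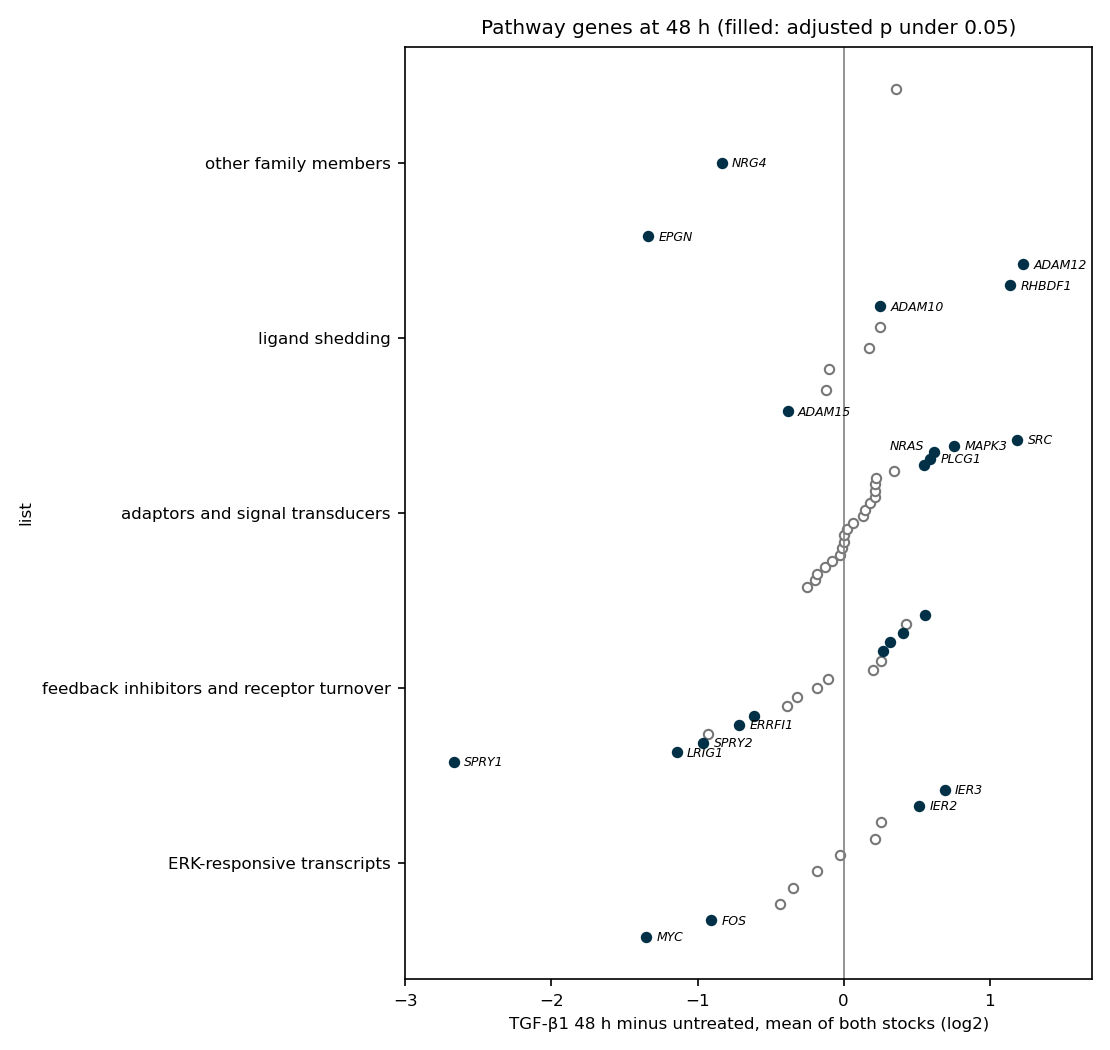
Log2 difference from untreated at 48 h of TGF-β1, as the mean of both stocks, for each tested gene of the 5 pathway lists, 1 point per gene and filled where called. SPRY1 is the lowest at -2.67, and SRC, RHBDF1 and ADAM12 are among the highest.

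Over the 16 libraries EREG was most like SECTM1 (Pearson r 0.983), ZNF395 (0.981) and SDHD (0.969), and TGFA most like LAMA3 (0.968), a laminin chain, NUAK2 (0.967) and TNFAIP1 (0.958). EGFR followed TP63 (0.922), a basal epithelial transcription factor, CCDC120 (0.91) and SH2D3A (0.908), and ERBB2 followed USP54 (0.93), RIT1 (0.918) and SYNPO (0.913). The closest genes to ERBB3 were SLC39A10 (0.955), RICTOR (0.934) and POR (0.933), those to HBEGF were SRSF8 (0.939), PSTPIP2 (0.928) and PTP4A1 (0.927), and those to AREG were XRN2 (0.93), MIR17HG (0.919) and PPIF (0.913). BTC was closest to DNAJC6 (0.928), CPNE3 (0.925) and OMA1 (0.924), and NRG1 to PTBP1 (0.908), PSMD3 (0.905) and EIF6 (0.889). These correlations share the libraries, their treatment and their rounds, and are descriptions only. Among the 9 genes themselves EREG ran opposite to TGFA (r -0.826) and to ERBB2 (-0.736). AREG ran with NRG1 (0.776), EREG with BTC (0.764) and ERBB2 with TGFA (0.737).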

How the data were processed

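MCF10A libraries were made from total RNA after ribosomal RNA depletion with a stranded kit and sequenced as 50-base paired reads, per the labels' protocols. The submitters' processing notes name hg19, TopHat2 2.0.13, featureCounts of Subread 1.4.6 and DESeq2. What the authors deposited is a log2 expression value for each gene and library, after their own normalisation. They have the pattern of a regularised log, which shrinks weak genes, and the transformation is not given in the sources used here. True depth per library is therefore unknown and no counting interval is given. The sum of linear values was 18.8 to 21.2 M per library (18.8 to 19.2 untreated, 19.9 to 21.2 treated).

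Of 23368 rows, 28 had a date in place of a symbol and were not used, and 4064 held 0 throughout. Genes with 2 raised to the value of at least 10 in at least 2 libraries were tested (13570), with no pseudocount. limma 3.58.1 in R 4.3.3, with a variance trend, was fitted on 8 groups and 16 libraries (8 residual degrees of freedom), and p-values were Benjamini-Hochberg adjusted within each of 18 comparisons. Tests were checked on simulated data in which libraries varied independently, with no round effect. That check does not cover deviations shared by libraries of a round. Another sheet, with 4 columns of per-sample values under names that matched no sample, was not used. Alternatives were the round as a block, no filter, a stricter filter (100), no variance trend, median scaling, and leaving out each library. A block of round within each stock was added after seeing the data.

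Replicate numbers are sequencing rounds in the labels. Deviations of same-numbered libraries correlated between groups at 0.207 to 0.749 (median 0.461, 28 pairs), so the numbers pair the samples. The correlation was 0.42 to 0.749 within a stock (median 0.583, 12 pairs) and 0.207 to 0.541 between stocks (median 0.386, 16 pairs). A round block common to both stocks therefore pairs PHF8 with Mock libraries only in part.

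The genes, lists and tests were chosen with earlier results of these data known. All 9 genes are named, those called and the 3 receptors by library, with up to 4 called genes per pathway list (largest difference) and the 3 genes most alike each member. ADAM17, SPRY4, the list genes called between stocks with the block, and the chromosome 4 neighbours were chosen after their values were seen. One gene is not reported here. Gene order and promoters come from RefSeq on GRCh38, not the authors' build, and no other coordinates are given.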

Additional observations from a re-analysis of the deposited data

How the results depend on the processing

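Median scaling of the libraries moved no count of the 9 genes, and shifted the median of all genes by at most 0.02 in either direction. The blocks, the filters and the variance trend leave each difference unchanged, so they could not reverse a direction. Under median scaling and with a library left out, no direction of a called difference reversed. With the round as a block the number of the 9 genes called was 5, 5 and 5 in Mock at 24, 48 and 72 h, 3 and 2 in the PHF8 stock at 48 and 72 h, 7 and 6 for the mean of both stocks at 48 and 72 h, and 2 between stocks over the 4 conditions. The block within each stock was chosen after seeing the data. Of 13570 genes it called 5647, 5480 and 5074 in Mock and 4802, 4641 and 4065 in the PHF8 stock. It called 7043 and 6501 for the mean at 48 and 72 h, 986 between 24 and 72 h, and 2580 between stocks. Of the 9 genes it called 6, 6 and 5 in Mock and 3, 6 and 4 in the PHF8 stock. Their number was 7 and 6 for the mean at 48 and 72 h, 1 (AREG) between 24 and 72 h, and 2 between stocks. Without the filter and with the stricter filter Mock at 48 h gave 1, and without a variance trend the PHF8 stock at 48 h gave 2. In the main fit these comparisons gave 2 and 1, beside 17.3% and 12.6% of all genes. Leaving out 1 library moved the number called for the mean at 24, 48 and 72 h, and in Mock at 24 and 48 h. Leaving out 1 library of a group leaves a lone library, assumed to vary like the others.

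Over all genes the calls moved as follows from the fit without a block to that with the round and that with the round within each stock. In Mock they were 2349, 4865 and 5647 at 24 h, 2348, 4741 and 5480 at 48 h, and 1948, 4275 and 5074 at 72 h. In the PHF8 stock they were 1590, 3974 and 4802, 1710, 3824 and 4641, and 1273, 3175 and 4065. For the mean of both stocks they were 4519, 6714 and 7299, 4239, 6479 and 7043, and 3717, 5927 and 6501. Between 24 and 72 h they were 4, 121 and 986 (2 with the stricter filter). Between stocks they were 1, 5 and 175 untreated, 1, 6 and 104 at 24 h, 1, 2 and 98 at 48 h, 2, 13 and 202 at 72 h, and 229, 1237 and 2580 over the 4 conditions. Leaving out 1 library gave 648 to 2395, 790 to 2302 and 619 to 1958 in Mock, 329 to 1702, 567 to 1725 and 394 to 1267 in the PHF8 stock, 0 to 6 between 24 and 72 h, 1 to 2 between stocks at 72 h and 60 to 286 over the 4 conditions. The cause was not tested. Without read counts, what depth limits for weak genes such as BTC is unknown.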
